A study of Mus musculus with 6 samples.

Results

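Collagens, laminins and fibrillins were followed as a group in RNA sequencing of the embryonic mouse spinal cord. They were taken as every row of the count table whose symbol named a collagen chain, a laminin alpha, beta or gamma chain, or Fbn1 or Fbn2, and that had at least 10 counts in 3 or more libraries. The patterns matched 57 symbols, and 56 of the 55433 genes in the table passed the minimum: 43 collagens, 11 laminins and 2 fibrillins. The row left out was Col10a1, the collagen of hypertrophic cartilage, with 2, 0 and 4 counts in the libraries labelled NFIAcKO and 2, 0 and 4 in those labelled control. A further gene, Col4a3, met the minimum through the libraries labelled NFIAcKO alone, with 10, 12 and 19 counts there and 6, 8 and 8 in those labelled control. It did not enter the tests, which covered 55 members among 17711 genes.

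Whole spinal cords were taken from E13.5 embryos on a C57BL/6J background, and polyadenylated RNA was sequenced. In the tested genotype, NFIA-ff; Nestin-cre (labelled NFIAcKO, n = 3), both Nfia alleles are flanked by loxP sites and Cre is driven by Nestin regulatory sequence, which is active mainly in neural progenitors and their descendants. The NFIA-ff embryos (labelled control, n = 3) carried the floxed alleles without Cre, so the floxed alleles are common to both groups and the Cre transgene is present in one group only. The cord was not sorted, so its vessels and any attached meninges contributed RNA to every library. Counts assigned to genes summed to between 47388945 and 48947073 in the libraries labelled NFIAcKO and between 43393053 and 51465763 in those labelled control.

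Nfia, which encodes the transcription factor nuclear factor I A, went against the labels. It had 5144, 5016 and 5636 counts in the libraries labelled NFIAcKO, against 2641, 3110 and 3683 in those labelled control. A count over the whole gene does not test whether floxed exons were deleted, so the groups keep the names on their labels, and each direction given here rests on those names. In whole tissue, fewer cells of a type and less RNA per cell cannot be told apart. Values for markers of the cells the cord could hold are given after the members.

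Collagens are trimers of alpha chains wound into a triple helix. The fibrillar types build the fibrils of connective tissue, type IV forms the sheet-like network of basement membranes, and other types decorate fibrils, span membranes or form beaded filaments. Laminins are heterotrimers of an alpha, a beta and a gamma chain that organise basement membranes, and fibrillins polymerise into the microfibrils that carry elastin and bind latent TGF-beta. In the developing cord a basement membrane lies under the meninges, where the endfeet of radial progenitors attach to it, and another surrounds the vessels.

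The promoters of 2 members are shown because the gene targeted by this design encodes a DNA-binding protein. Both members rose in each of the 6 fits that left out a single library and changed nothing else. Each run is the 250 bases before the RefSeq transcription start in GRCm38.p6, 5′ to 3′ on the gene's own strand, taken from chr3:114030290-114030539 (plus strand) for Col11a1 and chr10:27616943-27617192 (minus strand) for Lama2. Capitals mark the GC box GGGCGG in Col11a1 and the nuclear factor I core TTGGCA in Lama2.
Col11a1: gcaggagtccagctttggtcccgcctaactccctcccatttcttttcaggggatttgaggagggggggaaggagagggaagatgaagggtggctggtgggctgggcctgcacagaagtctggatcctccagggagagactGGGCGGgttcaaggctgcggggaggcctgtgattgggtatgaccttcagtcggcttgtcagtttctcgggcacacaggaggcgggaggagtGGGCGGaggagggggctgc
Lama2: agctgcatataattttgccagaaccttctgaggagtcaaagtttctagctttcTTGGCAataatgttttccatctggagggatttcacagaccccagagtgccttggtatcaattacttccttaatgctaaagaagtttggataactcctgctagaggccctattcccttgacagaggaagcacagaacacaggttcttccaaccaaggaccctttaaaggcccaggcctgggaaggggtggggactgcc
The Col11a1 window held 2 GC boxes and no core, and the Lama2 window held 1 core and no GC box. RefSeq windows were matched for 40 members, which had 44 windows. The core, searched on both strands, lay in 9 of these 44 windows (20.5%) and in 12.3% of all 32851 windows of the same length. Its genes were Col1a2, Col4a5, Col6a5, Col9a1, Col16a1, Col27a1, Col28a1, Lama2 and Lamb3, of which Lama2 alone was called in the comparison below. The full nuclear factor I palindrome, a longer site, lay in 0 of the 44 member windows and in 0.0365% of all windows. With so low a share over all windows, its absence cannot set the members apart from other genes. The GC box lay in 25 member windows (56.8%) and in 32.7% of all windows. The RefSeq start of Lama2 lies inside the gene as GENCODE draws it, which ends at 27619758. These matches are descriptions of letters and say nothing of binding.

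Levels differ between members by orders of magnitude, and only a scale per length allows them to be compared. On the scale of CPM (gene counts scaled to a fixed library size) per kilobase of annotated exon, Col3a1, a fibrillar collagen of soft connective tissue, was highest, at 84.8 ± 14.8 (NFIAcKO) against 73.3 ± 11.4 (control) (mean ± SD, n = 3 each). It was followed by Col4a1 at 67.8 ± 6.41 (NFIAcKO) against 46.2 ± 12.6 (control) and Col4a2 at 50.97 ± 5.22 (NFIAcKO) against 31.97 ± 9.21 (control), the usual chains of vascular and pial basement membranes. Col1a1 stood at 42.9 ± 12.01 (NFIAcKO) against 29.8 ± 5.87 (control), Col1a2 at 31.96 ± 6.69 (NFIAcKO) against 27.02 ± 3.58 (control) and Col18a1, the endostatin-bearing multiplexin, at 27.5 ± 3.24 (NFIAcKO) against 20.9 ± 4.33 (control). Neighbours in this order, such as Col1a1 and Col1a2 in the control libraries, could lie within 1 SD of each other. The most abundant laminin chain per length was Lamc1, at 18.4 ± 0.490 (NFIAcKO) against 11.3 ± 2.78 (control), and the most abundant fibrillin was Fbn2, at 4.61 ± 0.603 (NFIAcKO) against 2.50 ± 0.572 (control). The lowest member was Col4a3, at 0.0290 (NFIAcKO) against 0.0154 (control).

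**Figure D1:**
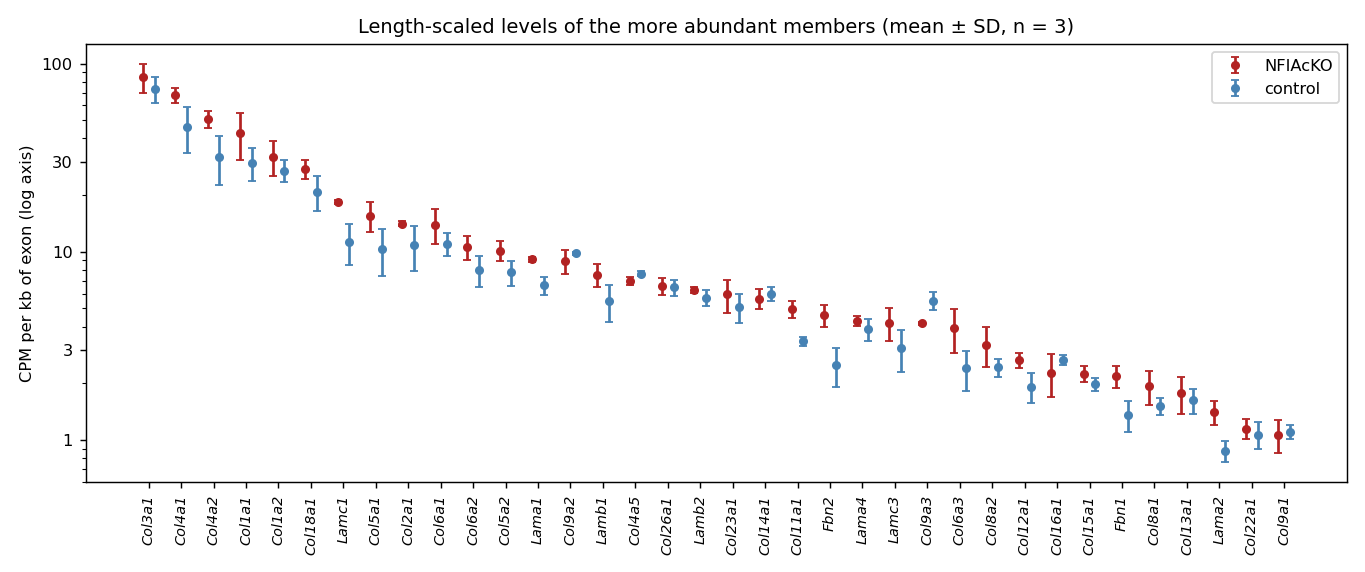
Mean CPM per kilobase of exon (log axis, ± SD, n = 3) of the 36 more abundant members, NFIAcKO left of control for each gene. Col3a1, Col4a1 and Col4a2 head the order in both groups, and Col3a1 averages 84.8 in the libraries labelled NFIAcKO and 73.3 in those labelled control.

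The members rose more often than they fell. With edgeR's quasi-likelihood test and Benjamini-Hochberg adjustment over all 17711 genes, 8 of 55 members (14.5%) were higher in the libraries labelled NFIAcKO at an adjusted p under 0.05, against a background of 7.86% of all genes tested. A single member (1.82%) was lower, against a background of 6.08%, and 46 were not called. Upper quartile scaling, which lowered the median of all genes to -0.05 and called 1057 genes higher and 1434 lower in place of 1392 and 1076, gave 7 members higher and 1 lower. The median log2 fold change was 0.24 over the members and -0.01 over all genes tested. Among the 42 collagens tested 3 rose and 1 fell, with a median of 0.22, and a fit that blocked on the replicate number called 5 higher and 1 lower. Over all members the block gave 11 higher and 1 lower, against 7.64% and 6.32% of all genes tested. In 13 members (23.6%, background 17.3%) the lowest library labelled NFIAcKO exceeded the highest control library, and in 4 members (7.27%, background 16.1%) the highest library labelled NFIAcKO was under the lowest control library. The members that rose were Fbn2, Fbn1, Lamc1, Lama2, Lama1, Col11a1, Col12a1 and Col5a2, and the member that fell was Col9a3. The backgrounds of 7.86% higher and 6.08% lower apply to each class and gene list below. DESeq2 called 14.1% of the genes it tested higher and 11.1% lower, and limma-voom 7.37% and 4.93%. Counts at an unadjusted p are given without a share over all genes, which was not taken, so they do not set members or lists apart from other genes.

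The number of members called higher depended on single libraries. It was 18 without control replicate 3 (background 14.8% of genes tested), 9 without NFIAcKO replicate 2 (3.29%), 5 without NFIAcKO replicate 1 (1.72%), 5 without NFIAcKO replicate 3 (1.79%), 4 without control replicate 1 (1.55%) and 4 without control replicate 2 (3.88%). Member genes are long, with a median of 8039 bp of exon against 3976 bp over all genes tested, and fold changes in this comparison followed exon length and GC content. With that trend removed, 7.69% of all genes were called in either direction, and 5 members (9.09%, background 3.82%) were higher, 1 (1.82%, background 3.87%) was lower, and the median of the members was 0.11 on the log2 scale against 0.01 over all genes. At an unadjusted p under 0.05, 12 members were then higher and 9 lower. Combining the trend with the loss of a library left few calls over the whole table, so those fits say little about the members. No member was called without NFIAcKO replicate 1 or 3 or without control replicate 1 or 2, when 2, 8, 1 and 122 of all genes were called higher. In those 4 fits 8, 14, 8 and 8 members were higher and 10, 9, 8 and 4 lower at an unadjusted p under 0.05. Without NFIAcKO replicate 2 the trend-removed count was 1, among 36 genes called higher, and without control replicate 3 it was 15, among 1867.

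**Figure D2:**
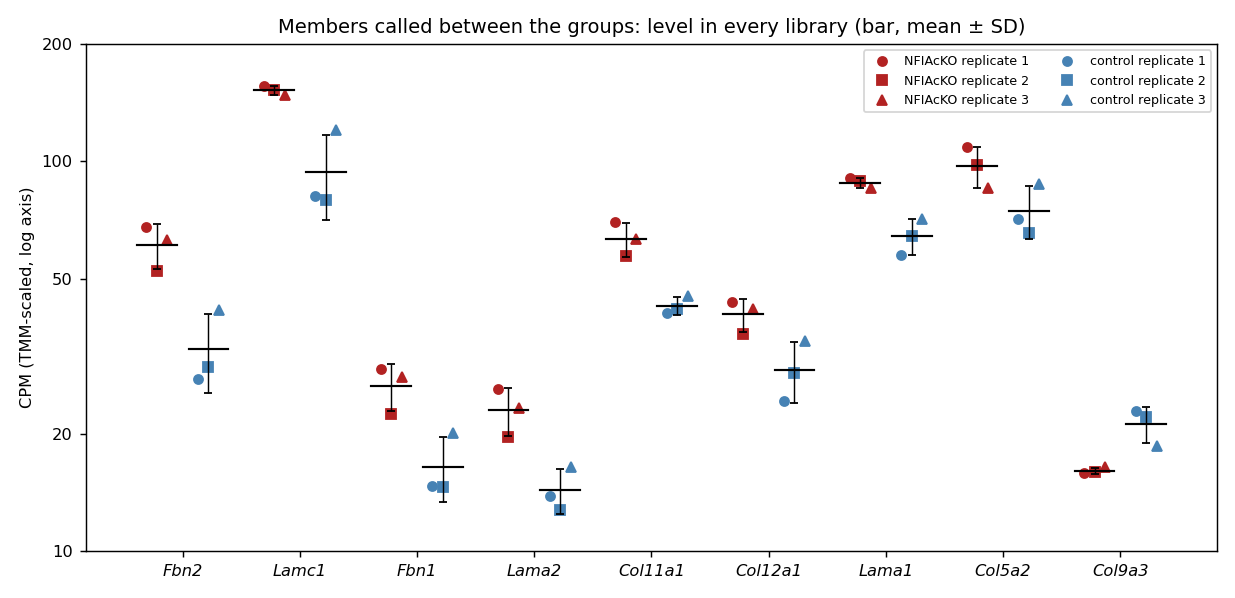
CPM in every library (log axis) of the 9 members called between the groups, with NFIAcKO left of control and bars for the mean ± SD (n = 3 each). Fbn2 averages 60.9 CPM in the libraries labelled NFIAcKO and 33.0 CPM in those labelled control, and only Col9a3 is lower in the libraries labelled NFIAcKO.

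Both fibrillins rose, and Fbn2 had the largest fold change among the members called. Fbn2, the fibrillin prominent in embryonic microfibrils (GRCm38 chr18:58008623-58210487, minus strand), had 67.7, 52.1 and 62.9 CPM in the libraries labelled NFIAcKO, against 27.6, 29.7 and 41.6 CPM in those labelled control. The groups did not overlap, and control replicate 3 was the highest of its group. Means were 60.9 ± 7.97 CPM in the libraries labelled NFIAcKO and 32.97 ± 7.57 CPM in those labelled control (SD, n = 3 each), a 1.85-fold difference with a log2 fold change of 0.89 ± 0.15 (SE) and an adjusted p of 0.00691. Fbn1, the fibrillin mutated in Marfan syndrome (chr2:125300594-125507993, minus strand), had 29.3, 22.4 and 27.9 CPM in the libraries labelled NFIAcKO, against 14.7, 14.6 and 20.03 CPM in those labelled control. Again the groups did not overlap and control replicate 3 was the highest control library. The log2 fold change of Fbn1 was 0.69 ± 0.14 (1.61-fold, adjusted p = 0.00835). With the length and GC trend removed the log2 fold changes were 0.61 for Fbn2 (adjusted p = 0.0207) and 0.44 for Fbn1 (adjusted p = 0.0364). The call of Fbn2 was lost without control replicate 2 (adjusted p = 0.0923). That of Fbn1 was lost without control replicate 1 (0.0538), NFIAcKO replicate 1 (0.0535) or NFIAcKO replicate 3 (0.0570). Exons of Fbn2 overlap those of Gm26507 on the other strand by 129 bp. The exons of Fbn1 overlap those of Gm9913 on the other strand by 2442 bp, and Gm9913 itself had 0, 0 and 2 counts in the libraries labelled NFIAcKO and 6, 0 and 4 in those labelled control. Summed over both fibrillins, the level was 97.0, 74.6 and 90.8 CPM in the libraries labelled NFIAcKO and 42.3, 44.3 and 61.7 CPM in those labelled control.

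Of the 11 laminin chains, 3 rose and none fell, against 7.86% and 6.08% of all genes tested. DESeq2 called 5 laminins higher and 0 lower, limma-voom 4 and 0, and no laminin was lower at an unadjusted p under 0.05. The median log2 fold change of the laminins was 0.44, and 0.23 with the length and GC trend removed, when Lamc1 alone was called. Of the chains that rose, Lamc1 is the gamma chain of most laminins, and Lama1 and Lama2 are alternative alpha chains that do not share a trimer. A trimer also holds a beta chain, and no beta chain was called in the fit given first. Lamc1 (chr1:153218922-153332786, minus strand) had 156, 152 and 148 CPM in the libraries labelled NFIAcKO, against 81.5, 79.3 and 120.1 CPM in those labelled control. The libraries labelled NFIAcKO lay close together and above control replicate 3, which stood well above the other control libraries. The log2 fold change of Lamc1 was 0.70 ± 0.14 (1.63-fold, adjusted p = 0.0101), and it was 0.54 with the trend removed (adjusted p = 0.0212). Without control replicate 2 its call was lost (adjusted p = 0.0724).

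Among the alpha chains, Lama1, the chain of early embryonic and pial basement membranes (chr17:67697259-67822647, plus strand), had 90.4, 88.8 and 85.4 CPM in the libraries labelled NFIAcKO, against 57.4, 64.4 and 71.1 CPM in those labelled control. The groups did not overlap. Its log2 fold change was 0.46 ± 0.09 (1.37-fold, adjusted p = 0.00720), and the call was lost without control replicate 1 (0.0555) and with the trend removed (log2 fold change 0.23, adjusted p = 0.0651). Lama2, the merosin chain whose loss causes congenital muscular dystrophy (chr10:26980036-27619758, minus strand), had 26.1, 19.6 and 23.2 CPM in the libraries labelled NFIAcKO, against 13.8, 12.7 and 16.4 CPM in those labelled control. Here too the groups did not overlap, and the call held without any 1 of the 6 libraries. Lama2 had a log2 fold change of 0.68 ± 0.13 (1.60-fold, adjusted p = 0.00700), and with the trend removed it was 0.37 and no longer called (adjusted p = 0.0530). It is the longest member, with 16338 bp of exon. Lama4, an alpha chain of vessels, was not called (log2 fold change 0.15, adjusted p = 0.322), nor was Lama3, an epithelial chain (0.47, 0.171), nor Lama5, a chain of mature basement membranes, at 3.76, 4.17 and 4.15 CPM (NFIAcKO) against 3.92, 3.97 and 4.26 CPM (control) (-0.01, 0.980).

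No beta chain was called (DESeq2 and limma-voom each called 1 higher, and 1 was higher at an unadjusted p under 0.05). Lamb1, the beta chain most abundant per length and the partner of Lama1 and Lamc1 in laminin-111, had 86.9, 70.6 and 67.2 CPM in the libraries labelled NFIAcKO, against 50.96, 43.9 and 67.5 CPM in those labelled control. NFIAcKO replicate 3 lay below control replicate 3, so the groups overlapped. Its log2 fold change of 0.47 ± 0.15 gave an adjusted p of 0.0680, and of 0.0480 with the replicate number as a block. Lamb2, a chain of synaptic and mature basement membranes, had a log2 fold change of 0.14 (adjusted p = 0.324), and Lamb3, which pairs with Lama3 in epithelia, -0.14 (0.843). Among the gamma chains, Lamc3 was not called (0.44, 0.118). All laminin chains together summed to 495, 454 and 444 CPM in the libraries labelled NFIAcKO, against 303, 303 and 402 CPM in those labelled control.

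The type IV collagens, the network-forming partners of laminins, had the largest ratio of summed levels of any collagen class (1.46-fold). None was called in the edgeR fit given first, whereas the block on replicate number called 2 higher. DESeq2 called 1 higher, limma-voom 2, and 2 were higher at an unadjusted p under 0.05. The class summed to 979, 902 and 814 CPM in the libraries labelled NFIAcKO and 574, 483 and 789.8 CPM in those labelled control. The means were 898 ± 82.7 CPM (NFIAcKO) and 616 ± 158 CPM (control). Nearly all of that sum was Col4a1 and Col4a2, which are transcribed head to head from chr8:11198423-11312826 and chr8:11312805-11449287 and whose exons overlap by 22 bp. Col4a1 had 553, 507 and 458 CPM in the libraries labelled NFIAcKO, against 319, 267 and 449 CPM in those labelled control. Col4a2 had 369, 343 and 300.2 CPM in the libraries labelled NFIAcKO, against 198, 159 and 278 CPM in those labelled control. In both genes the groups did not overlap, although control replicate 3 came close to the lowest library labelled NFIAcKO. Log2 fold changes were 0.55 ± 0.17 for Col4a1 (adjusted p = 0.0632) and 0.67 ± 0.19 for Col4a2 (adjusted p = 0.0579), short of the threshold. Both passed it in the fit with the replicate number as a block, at 0.0466 and 0.0414. With the length and GC trend removed Col4a2 passed as well (log2 fold change 0.49, adjusted p = 0.0429), whereas Col4a1 did not (0.36, 0.0753).

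The other type IV chains were not called. Col4a5 and Col4a6, a head-to-head pair on the X chromosome, had log2 fold changes of -0.13 and 0.05 (adjusted p = 0.297 and 0.878). Col4a5 stood at 48.4, 44.3 and 48.4 CPM (NFIAcKO) against 50.1, 51.4 and 53.03 CPM (control) and was one of the 4 members with every library labelled NFIAcKO below every control library. Col4a4, a chain of the kidney filter that lies 71 bp from Col4a3, had a log2 fold change of -0.04 (adjusted p = 0.948).

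Among the 11 fibrillar collagens, 2 rose and none fell (DESeq2 called 3 higher and 0 lower, limma-voom 3 and 0, and 1 was lower at an unadjusted p under 0.05). The class median was 0.33, and 0.11 with the trend removed. Col11a1, a minor chain that helps start fibrils of type II and type I collagen (chr3:114030540-114220718, plus strand), had 69.7, 57.04 and 63.1 CPM in the libraries labelled NFIAcKO, against 40.9, 41.7 and 45.2 CPM in those labelled control. The groups did not overlap and the control libraries lay close together. Its log2 fold change was 0.57 ± 0.09 (1.49-fold, adjusted p = 0.00438), and the call held without any 1 of the 6 libraries and with the trend removed (0.32, adjusted p = 0.0277). Col5a2, a type V chain that limits fibril width (chr1:45374321-45503282, minus strand), had 109, 97.6 and 85.4 CPM in the libraries labelled NFIAcKO, against 71.3, 65.4 and 87.5 CPM in those labelled control. These groups overlapped, with NFIAcKO replicate 3 below control replicate 3. Col5a2 had a log2 fold change of 0.38 ± 0.11 (1.30-fold, adjusted p = 0.0386). Of the 6 fits that each left out a library, the one without control replicate 3 alone kept this call. It was lost without control replicate 1 (0.151), control replicate 2 (0.161), NFIAcKO replicate 1 (0.186), NFIAcKO replicate 2 (0.101) or NFIAcKO replicate 3 (0.0615), with the replicate number as a block (0.0580) and with the trend removed (log2 fold change 0.19, adjusted p = 0.216).

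The abundant fibrillar collagens were not called. Col3a1 had 1000.1, 752 and 747 CPM in the libraries labelled NFIAcKO, against 687, 627 and 845 CPM in those labelled control. The groups overlapped, and the log2 fold change of 0.21 ± 0.13 gave an adjusted p of 0.307. Col1a1 and Col1a2, the chains of type I collagen, had log2 fold changes of 0.53 (adjusted p = 0.184) and 0.24 (0.266). Col2a1, the main cartilage collagen, stood at 131, 134 and 127 CPM (NFIAcKO) against 82.2, 86.4 and 132 CPM (control) (0.38, 0.141), and Col5a1 at 159.9, 119.6 and 116 CPM (NFIAcKO) against 77.4, 69.95 and 116 CPM (control) (0.59, 0.136). Of the minor chains, Col5a3 had 1.10, 0.713 and 1.04 CPM (NFIAcKO) against 1.66, 1.63 and 1.12 CPM (control), every library labelled NFIAcKO lying below every control library, yet its adjusted p was 0.136. Col11a2, Col24a1 and Col27a1 had log2 fold changes of -0.13, 0.33 and -0.01, none of them called.

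**Figure D3:**
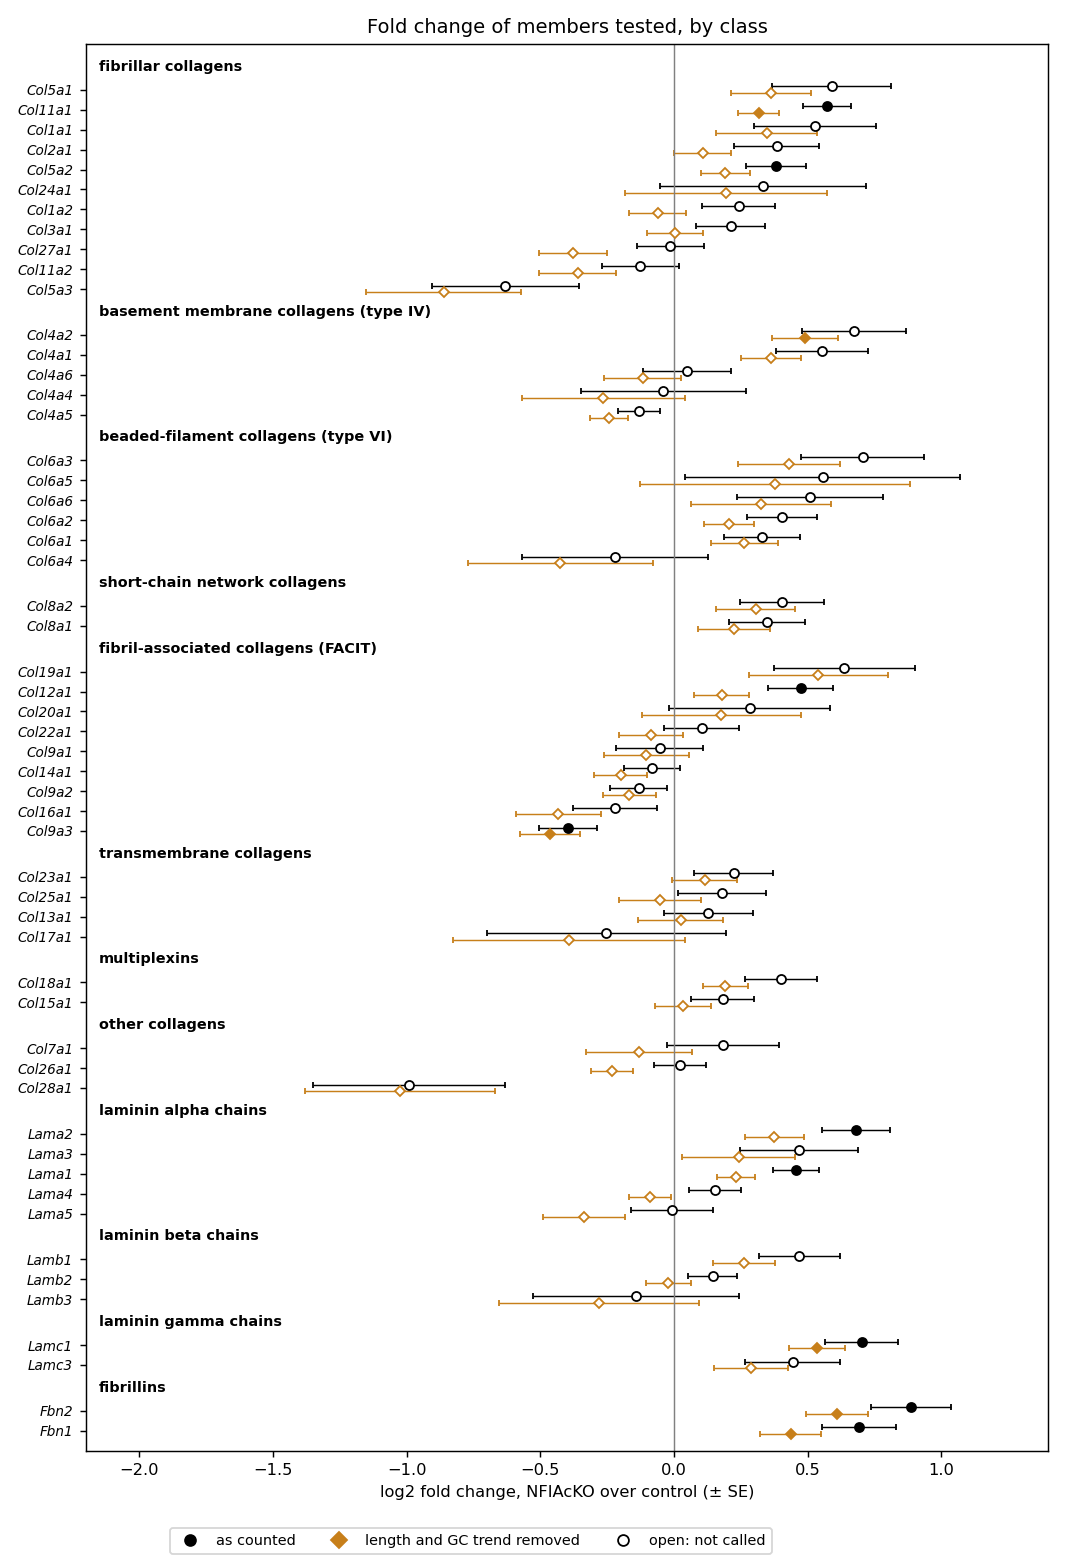
Log2 fold change (NFIAcKO over control, ± SE) of members tested, by class, as counted (circles) and with the length and GC trend removed (diamonds); filled symbols were called. Fbn1, Fbn2, Lamc1, Col11a1 and Col9a3 are filled in both, and in most members the diamond lies left of the circle.

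The fibril-associated collagens, which bind the surface of fibrils, split: of 9 tested, 1 rose and 1 fell. Their summed level was 157.8 ± 10.01 CPM in the libraries labelled NFIAcKO and 157.9 ± 7.12 CPM in those labelled control. Col12a1, which coats type I fibrils (chr9:79598991-79718831, minus strand), had 43.6, 36.1 and 41.7 CPM in the libraries labelled NFIAcKO, against 24.2, 28.6 and 34.6 CPM in those labelled control. The lowest library labelled NFIAcKO lay just above control replicate 3. Col12a1 had a log2 fold change of 0.47 ± 0.12 (1.39-fold, adjusted p = 0.0215), a call lost once the trend was removed (0.18, adjusted p = 0.308) and without control replicate 1 (0.116), control replicate 2 (0.106), NFIAcKO replicate 1 (0.109) or NFIAcKO replicate 3 (0.0951). Col9a3, a chain of the type IX collagen that decorates cartilage fibrils (chr2:180597790-180622189, plus strand), had 15.8, 15.98 and 16.4 CPM in the libraries labelled NFIAcKO, against 22.8, 22.1 and 18.5 CPM in those labelled control. The groups did not overlap, and the libraries labelled NFIAcKO were tightly spaced. Col9a3 fell by 0.40 on the log2 scale (SE 0.11, adjusted p = 0.0266) and by 0.46 with the trend removed (adjusted p = 0.0288). The call was lost without any of 5 libraries, at adjusted p values of 0.127 without control replicate 1, 0.0641 without control replicate 2, and 0.114, 0.0812 and 0.0749 without NFIAcKO replicates 1, 2 and 3. Exons of Col9a3 overlap those of Tcfl5 on the other strand by 234 bp, so a strand setting could move reads between them. Tcfl5 had 141, 150 and 133 counts in the libraries labelled NFIAcKO and 115, 116 and 128 in those labelled control.

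Its partners in type IX collagen were not called. Col9a2, the fibril-associated chain most abundant per length, had 32.2, 24.4 and 26.5 CPM in the libraries labelled NFIAcKO, against 30.97, 30.4 and 29.7 CPM in those labelled control. The groups overlapped, at a log2 fold change of -0.13 (adjusted p = 0.446), and Col9a1 was at -0.05 (0.862). Col19a1, a low-level chain of basement membrane zones, had 1.45, 1.19 and 1.93 CPM (NFIAcKO) against 0.865, 0.988 and 1.08 CPM (control), without overlap but not called (0.64, 0.119). Col14a1, Col16a1, Col20a1 and Col22a1 had log2 fold changes of -0.08, -0.22, 0.28 and 0.10, with overlapping groups and no call.

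The type VI collagens, which form beaded filaments around cells, included no call among 6 tested (DESeq2 and limma-voom each called 1 higher, and 3 were higher at an unadjusted p under 0.05), although their median log2 fold change was 0.46. Col6a1, the chain most abundant per length, had 75.6, 52.2 and 54.8 CPM in the libraries labelled NFIAcKO, against 45.4, 43.5 and 56.5 CPM in those labelled control. The groups overlapped (log2 fold change 0.33 ± 0.14, adjusted p = 0.144). Col6a2 stood at 102, 80.3 and 81.2 CPM (NFIAcKO) against 65.9, 54.8 and 79.04 CPM (control) and Col6a3, the long chain of the trimer, at 60.8, 37.3 and 42.6 CPM (NFIAcKO) against 23.9, 25.8 and 36.6 CPM (control). Neither gene's groups overlapped, and log2 fold changes were 0.40 (adjusted p = 0.0584, 0.0351 with the replicate number as a block) and 0.71 (0.0908). Col6a4, Col6a5 and Col6a6, the chains that can replace Col6a3, were near the lower end of the members' levels, with log2 fold changes of -0.22, 0.56 and 0.51 and no call.

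The remaining collagens gave no call either, by this test or by limma-voom, while DESeq2 called 1 multiplexin. At an unadjusted p under 0.05, both short-chain collagens and 1 multiplexin were higher and 1 of the other collagens was lower. Col18a1, a multiplexin of basement membranes, had 212, 199.6 and 168 CPM in the libraries labelled NFIAcKO, against 140.0, 119.9 and 179.6 CPM in those labelled control. The groups overlapped through control replicate 3 (log2 fold change 0.40 ± 0.13, adjusted p = 0.0702), and Col15a1, the other multiplexin, was at 0.18 (0.326). The short-chain collagen Col8a2, of subendothelial matrix, had 18.1, 11.3 and 13.9 CPM in the libraries labelled NFIAcKO, against 11.96, 9.57 and 11.2 CPM in those labelled control. Those groups overlapped as well (0.40, 0.101), and Col8a1 was at 0.35 (0.114). Col23a1, the transmembrane collagen most abundant per length, had 41.8, 31.4 and 28.99 CPM in the libraries labelled NFIAcKO, against 28.1, 24.7 and 34.8 CPM in those labelled control. Its groups overlapped (0.22, 0.346), as did those of Col13a1, Col17a1 and Col25a1, which are transmembrane too (0.13, -0.25 and 0.18). Col26a1 had 60.2, 51.3 and 49.7 CPM in the libraries labelled NFIAcKO, against 48.4, 51.7 and 58.6 CPM in those labelled control. Its groups overlapped (0.02, 0.902), and neither it nor Col7a1, the anchoring-fibril collagen of skin (0.18), was called. Col28a1, a collagen with von Willebrand factor A domains, stood at 0.537, 0.410 and 0.275 CPM (NFIAcKO) against 0.638, 0.874 and 0.925 CPM (control), under 1 CPM in all 6 libraries. Its libraries labelled NFIAcKO all lay below those labelled control, with a log2 fold change of -0.99 ± 0.36 and an adjusted p of 0.0778.

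Libraries with the same replicate number moved together, and the 3 pairs did not show the same shift. Setting NFIAcKO over control of the same number, 46, 38 and 24 of 55 members were higher in pairs 1, 2 and 3. The median log2 ratio of CPM over the members was 0.57, 0.26 and -0.03. Shares over all genes were not taken for these pairs, so the values do not set the members apart from other genes. In pair 3 the abundant collagens were level or lower, with log2 ratios of -0.18 for Col3a1, -0.03 for Col5a2, 0.03 for Col4a1 and 0.11 for Col4a2. The fibrillins, Lama2 and Col11a1 were higher in the library labelled NFIAcKO there, at 0.59 for Fbn2, 0.48 for Fbn1, 0.50 for Lama2 and 0.48 for Col11a1. Lamc1, Lama1 and Col12a1 were at 0.30, 0.26 and 0.27, and Col9a3 at -0.18. NFIAcKO replicate 1 held the highest level of 34 of the 55 members, and control replicate 2 the lowest level of 23. These ranks too were not taken over all genes. Replicates 1 and 2 of both groups share a number in their file names and replicates 3 share another. Within the 4 libraries that share a number, 19 members were called higher and 2 lower, with a median log2 fold change of 0.42, and 16.1% of all genes tested were called higher and 13.1% lower. With that number as a covariate over all 6 libraries the counts were 10 and 1, against 9.60% and 7.97% of all genes. What the number stands for is not given, and its part in the result was not tested.

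**Figure D4:**
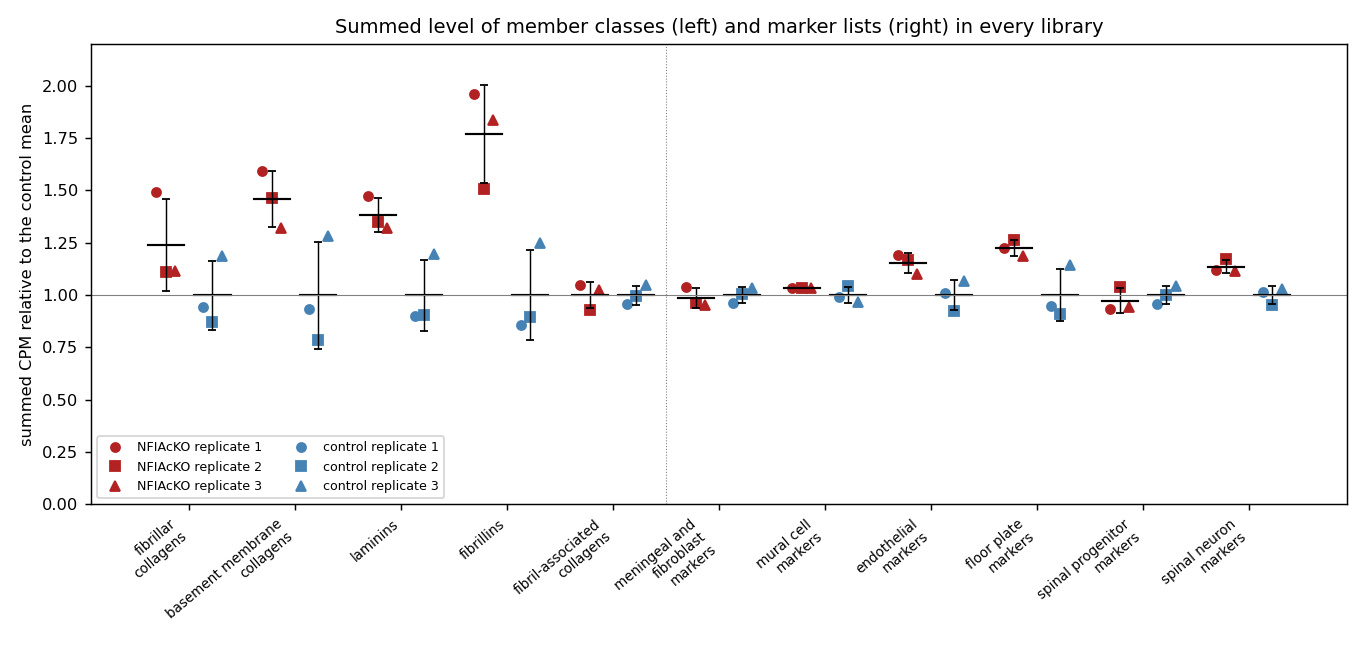
Summed CPM of member classes (left of the dotted line) and of marker lists (right) in every library, relative to the control mean, NFIAcKO left of control, with bars for the mean ± SD (n = 3 each). The fibrillins lie highest, at 87.4 ± 11.6 CPM in the libraries labelled NFIAcKO against 49.4 ± 10.6 CPM in those labelled control, and control replicate 3 is the highest control library in each class drawn.

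Ratios between chains that assemble together, or between members of the same family, did not overlap between the groups in some pairs. Ratios of CPM per kilobase were formed for 13 pairs chosen after their values were seen. They are given as descriptions only, and no pair is called different. How often ratios of other gene pairs fail to overlap was not taken. Col1a1 over Col1a2, the chains of type I collagen, gave 1.43, 1.27 and 1.29 in the libraries labelled NFIAcKO and 1.04, 1.07 and 1.18 in those labelled control, without overlap. Col4a1 over Col4a2 gave 1.33, 1.31 and 1.35 (NFIAcKO) against 1.43, 1.49 and 1.43 (control), so every library labelled NFIAcKO had relatively more Col4a2. Col11a1 over Col11a2 gave 6.02, 5.70 and 6.48 (NFIAcKO) against 4.003, 3.43 and 3.83 (control), the largest difference among the pairs (0.69 on the log2 scale). The exons of Col11a1 and Col11a2 differ in length, 12744 and 6874 bp, and in GC content, 48.0% and 62.9%. Over Lamc1, Lama1 gave 0.494, 0.498 and 0.492 (NFIAcKO) against 0.602, 0.694 and 0.506 (control), and Lama4 gave 0.241, 0.234 and 0.226 (NFIAcKO) against 0.361, 0.374 and 0.308 (control). Fbn1 over Fbn2 gave 0.471, 0.469 and 0.483 (NFIAcKO) against 0.580, 0.536 and 0.524 (control). Groups overlapped in the other 7 pairs.

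**Figure D5:**
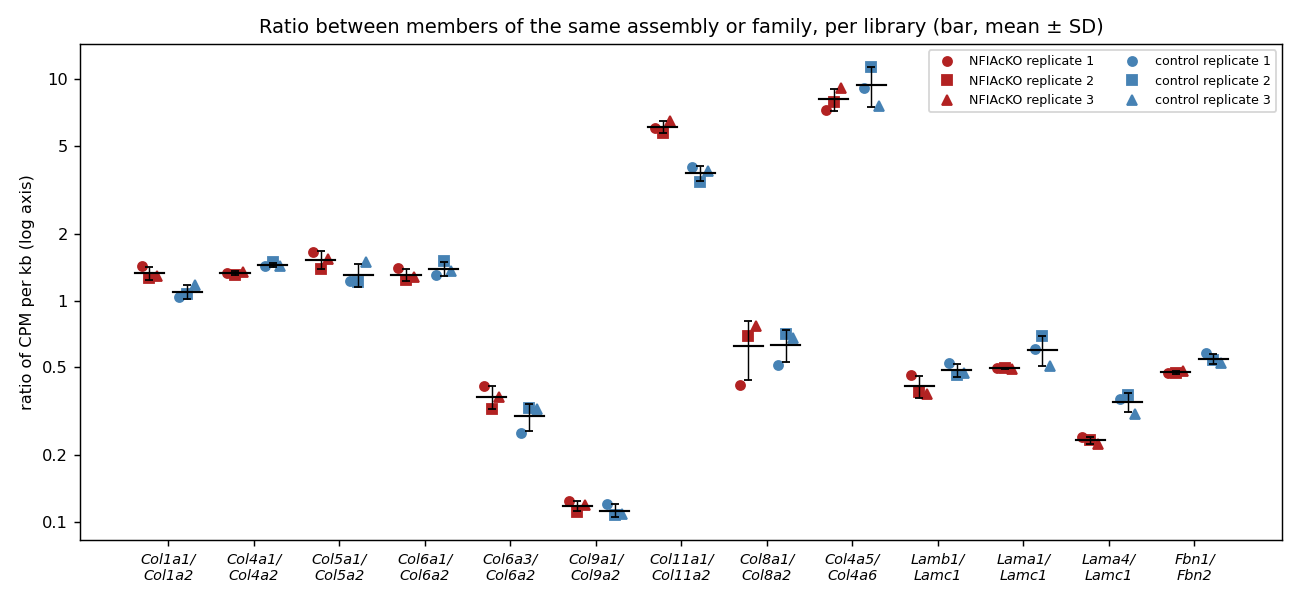
Ratio of CPM per kilobase of exon (log axis) between members of the same assembly or family in every library, NFIAcKO left of control, with bars for the mean ± SD (n = 3 each). Col11a1 over Col11a2 averages 6.07 in the libraries labelled NFIAcKO and 3.76 in those labelled control, and the groups overlap in 7 of the 13 pairs.

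Across the 55 members the log2 fold change followed exon length with a Spearman rho of 0.41 as counted and 0.23 with the trend removed, and GC content with -0.26 and -0.27. These are descriptions across genes that share the same libraries. The members that rose had a median of 12436 bp of exon, and those not called 7542 bp.

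Genes that build these proteins were called in both directions, at a rate near that of all genes, 13.9% in either direction. Of 30 enzymes and chaperones of collagen synthesis and crosslinking, 1 rose and 2 fell, with a median log2 fold change of -0.02. Mia3, which loads procollagen into transport carriers, rose (NFIAcKO 159 ± 4.48 CPM, control 131 ± 9.50 CPM; log2 fold change 0.28, adjusted p = 0.0310). Ppib, a prolyl isomerase of the prolyl 3-hydroxylase complex, fell (NFIAcKO 70.4 ± 3.11 CPM, control 89.8 ± 12.98 CPM; -0.35, 0.0285), as did P4hb, the disulfide isomerase subunit of prolyl 4-hydroxylase (NFIAcKO 408 ± 21.3 CPM, control 519.5 ± 66.5 CPM; -0.35, 0.0288). Loxl2, a crosslinking oxidase, was not called (0.40, 0.0897). With the length and GC trend removed the list held 1 that rose, Mia3, and 1 that fell, Bmp1, a procollagen C-proteinase named because it was that call (log2 fold change -0.22, adjusted p = 0.0403).

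Among 14 basement membrane partners, 4 rose and none fell (backgrounds 7.86% and 6.08%), with a median of 0.23. DESeq2 called 7 higher and 1 lower (backgrounds 14.1% and 11.1%) and limma-voom 4 and 0 (7.37% and 4.93%). At an unadjusted p under 0.05, 1 was lower. Hspg2, which encodes the heparan sulfate proteoglycan perlecan, had 54.7, 51.7 and 50.5 CPM in the libraries labelled NFIAcKO, against 29.3, 28.8 and 38.1 CPM in those labelled control. The groups did not overlap (log2 fold change 0.71 ± 0.11, adjusted p = 0.00416), and the call held without any 1 of the 6 libraries and with the trend removed (0.33, 0.0239). Fras1, Frem1 and Frem2, which form an embryonic complex beneath epithelia, rose with log2 fold changes of 0.68, 0.46 and 0.48 (adjusted p = 0.0221, 0.0345 and 0.0371), and with the trend removed none of these 3 was called.

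Of 20 receptors and receptor-modifying enzymes tested, 4 rose and 1 fell (backgrounds 7.86% and 6.08%), with a median of 0.08. Itga1, a collagen-binding integrin chain, rose (NFIAcKO 28.9 ± 1.63 CPM, control 19.8 ± 1.28 CPM; log2 fold change 0.54, adjusted p = 0.00622), and Itga11, which binds fibrillar collagen, rose as well (NFIAcKO 6.93 ± 0.357 CPM, control 4.53 ± 0.547 CPM; 0.61, 0.0149). Dag1, which encodes the laminin receptor dystroglycan, rose (NFIAcKO 213 ± 7.31 CPM, control 169.6 ± 22.2 CPM; 0.33, 0.0315), and so did the laminin-binding Itga3 (0.32, 0.0435). Itgb4, the hemidesmosome integrin chain that binds laminin, fell (NFIAcKO 2.58 ± 0.505 CPM, control 4.19 ± 0.260 CPM; -0.70, 0.0228). With the trend removed 1 of this list was higher, Itga11 (adjusted p = 0.0321), and 2 were lower. These were Itgb4 (0.0188) and Pomgnt1, named because it was that call (log2 fold change -0.30, adjusted p = 0.0357). The calls of Itga1 (0.0522), Dag1 (0.0590) and Itga3 (0.147) were then lost.

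Of 23 partners of microfibrils and elastic fibres, 1 rose and none fell, with a median of 0.06. With the length and GC trend removed none rose and 2 fell, Ltbp3 (log2 fold change -0.49, adjusted p = 0.0260) and Adamts10 (-0.49, 0.0492), which are named because they were those calls. Neither DESeq2, with 2 higher and 1 lower, nor limma-voom, with 0 and 0, called more than 2 in a direction, and 4 were higher and 2 lower at an unadjusted p under 0.05. Tgfb2, a ligand stored on microfibrils in latent form, rose (NFIAcKO 51.96 ± 4.24 CPM, control 40.3 ± 7.22 CPM; log2 fold change 0.37, adjusted p = 0.0474), but not once the trend was removed (0.0942). Tgfb1 missed the threshold (0.41, 0.0667) and passed it with the replicate number as a block (0.0490), which made 2 higher in this list. The microfibril-associated Mfap4 and Mfap5 were at -0.23 (0.0695) and -0.79 (0.0801). Of 21 matrix proteases and inhibitors, 1 rose and 1 fell. Timp4, an inhibitor of matrix metalloproteinases, had 4.86, 3.63 and 4.68 CPM in the libraries labelled NFIAcKO, against 10.6, 11.5 and 8.33 CPM in those labelled control. The groups were far apart (log2 fold change -1.21 ± 0.16, adjusted p = 0.00249), and the call held without any 1 of the 6 libraries. Its exons overlap those of Syn2 on the other strand by 90 bp. Adamts9, a protease of the versican-cleaving family, rose (0.36, 0.0453) but not with the replicate number as a block (0.0561) or with the trend removed (0.06, 0.756). Mmp2, a gelatinase that cleaves type IV collagen, and Adamts1 were not called (0.27, 0.0672, and 0.35, 0.0986), and with the trend removed Mmp2 was called higher (0.28, 0.0467).

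Of the genes called in these pathway lists, Hspg2, Itga1 and Timp4 were called in each of the 6 fits that left out a library and changed nothing else. Each of the others was lost in fits without other libraries and kept without control replicate 3, and 2 of them were kept in a further fit as well: Fras1 without NFIAcKO replicate 2 and Itgb4 without NFIAcKO replicate 1.

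Markers of the cell types that make these proteins were set beside the members. Of 14 meningeal and fibroblast markers, none rose and 1, Slc6a13, fell (DESeq2 and limma-voom called the same counts, 0 and 1, and 2 were higher and 2 lower at an unadjusted p under 0.05). With the replicate number as a block no marker of this list was called, and with the length and GC trend removed 1 was higher (Aldh1a2, adjusted p = 0.0464) and 0 lower. Their summed level was between 437 and 477 CPM in the libraries labelled NFIAcKO and between 440.2 and 474 CPM in those labelled control, and the list was led by Dcn (NFIAcKO 98.02 ± 3.61 CPM, control 113 ± 8.56 CPM), Aldh1a2 (NFIAcKO 93.8 ± 5.44 CPM, control 85.4 ± 6.29 CPM) and Crabp2 (NFIAcKO 72.1 ± 11.8 CPM, control 82.3 ± 5.68 CPM). Of 12 mural cell markers, 3 rose and 1 fell, whereas the block on replicate number left 2 and 1 and removal of the trend 0 and 0, and the sum was 382 CPM in each library labelled NFIAcKO and 357 to 385 CPM in those labelled control. Rgs5 (NFIAcKO 142 ± 2.28 CPM, control 173 ± 35.2 CPM), Notch3 (NFIAcKO 91.03 ± 2.99 CPM, control 66.3 ± 14.8 CPM) and Pdgfrb (NFIAcKO 53.4 ± 1.55 CPM, control 44.6 ± 3.09 CPM) had the highest levels. Of 12 endothelial markers, 4 rose and 3 fell (backgrounds 7.86% and 6.08%), against 2 and 1 with the trend removed (3.82% and 3.87%). The sum of this list was 439 to 476 CPM in the libraries labelled NFIAcKO, above the 369 to 426 CPM in those labelled control. Its leading genes moved in both directions, since Cdh5 (NFIAcKO 94.3 ± 4.41 CPM, control 64.4 ± 10.7 CPM, adjusted p = 0.00728) and Kdr (NFIAcKO 91.8 ± 6.55 CPM, control 65.6 ± 9.89 CPM, 0.0105) rose and Cldn5 (NFIAcKO 59.8 ± 2.16 CPM, control 73.8 ± 2.97 CPM, 0.0195) fell. Among the genes called in these 3 lists, the call of Cdh5 alone was kept in all 6 fits that left out a library. Each of the others was lost in some such fit and kept without control replicate 3. The part of endothelial RNA in the rise of the members was not tested.

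Cartilage, muscle and epidermal markers were at low levels. The sum of sensory ganglion and Schwann cell markers was higher, with Pou4f1 as its largest part. Which cells of the dissected tissue this RNA came from was not tested. Of 12 cartilage and sclerotome markers, 6 were tested and none called (DESeq2 and limma-voom called 0, and none had an unadjusted p under 0.05), at summed levels of 7.23 to 11.8 CPM in the libraries labelled NFIAcKO and 7.25 to 8.98 CPM in those labelled control. Pax1 (NFIAcKO 3.79 ± 2.75 CPM, control 1.28 ± 0.685 CPM), Hapln1 (NFIAcKO 2.18 ± 0.474 CPM, control 2.17 ± 0.643 CPM) and Matn4 (NFIAcKO 1.01 ± 0.437 CPM, control 1.68 ± 1.14 CPM) led that list. Of 10 skeletal muscle markers, 6 were tested and none called by edgeR, DESeq2 or limma-voom or at an unadjusted p under 0.05, at summed levels of 5.51 to 9.99 CPM (NFIAcKO) against 4.92 to 8.99 CPM (control). Myh3 (NFIAcKO 1.78 ± 0.693 CPM, control 1.39 ± 0.727 CPM), Actc1 (NFIAcKO 1.57 ± 0.693 CPM, control 1.47 ± 0.740 CPM) and Des (NFIAcKO 1.45 ± 0.192 CPM, control 1.45 ± 0.197 CPM) led it, and Myf6 was at 0 in every library, which allows up to 0.0583 to 0.0691 CPM by counting error. Sensory ganglion and Schwann cell markers, of which 11 were tested with 0 called higher and 1 lower (0 and 1 by DESeq2, 0 and 0 by limma-voom, with the replicate number as a block or with the trend removed, and 0 and 2 at an unadjusted p under 0.05), summed to 133 to 150.2 CPM (NFIAcKO) against 141 to 179.9 CPM (control), and were led by Pou4f1 (NFIAcKO 84.3 ± 8.11 CPM, control 82.1 ± 8.20 CPM), Sox10 (NFIAcKO 17.2 ± 1.77 CPM, control 18.7 ± 5.99 CPM) and Isl2 (NFIAcKO 12.6 ± 1.05 CPM, control 11.6 ± 2.73 CPM). Epidermal markers, 7 tested with no call (1 lower with the replicate number as a block; DESeq2 called 2 lower, limma-voom 0, and 2 were lower at an unadjusted p under 0.05), summed to 18.4 to 19.9 CPM (NFIAcKO) against 24.8 to 26.6 CPM (control) and were led by Krt10 (NFIAcKO 7.997 ± 1.26 CPM, control 11.5 ± 2.74 CPM), Krt1 (NFIAcKO 6.44 ± 0.310 CPM, control 8.31 ± 0.635 CPM) and Krt5 (NFIAcKO 2.48 ± 0.577 CPM, control 2.86 ± 1.18 CPM).

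The cord's own cells were present at high level in every library. Of 8 floor plate markers, 3 rose (2 with the replicate number as a block and 2 with the trend removed), and the sum was 1257 to 1339 CPM in the libraries labelled NFIAcKO against 965 to 1210.0 CPM in those labelled control, led by Spon1 (NFIAcKO 486 ± 13.3 CPM, control 428 ± 45.2 CPM), Ntn1 (NFIAcKO 481 ± 23.3 CPM, control 367 ± 57.5 CPM) and Slit1 (NFIAcKO 223 ± 4.04 CPM, control 183 ± 15.9 CPM). Of 12 spinal progenitor markers, 4 rose and 2 fell (3 and 0 with the trend removed), at 2368 to 2641 CPM (NFIAcKO) against 2432 to 2642 CPM (control), led by Vim (NFIAcKO 873 ± 77.3 CPM, control 821 ± 117 CPM), Fabp7 (NFIAcKO 659.7 ± 35.8 CPM, control 981 ± 166 CPM) and Nes (NFIAcKO 589 ± 61.9 CPM, control 426 ± 83.8 CPM). Of 12 spinal neuron markers, 4 rose, at 7197 to 7572 CPM (NFIAcKO) against 6151 to 6665 CPM (control), led by Tubb3 (NFIAcKO 2286 ± 151 CPM, control 2209.7 ± 94.4 CPM), Dcx (NFIAcKO 2301 ± 117 CPM, control 1682 ± 182 CPM) and Stmn2 (NFIAcKO 1245 ± 28.6 CPM, control 1363 ± 115 CPM). None of the genes called in these 3 lists was called in all 6 fits that left out a library, and each was called without control replicate 3. The floor plate and neuron sums thus moved in the same direction as the members, and their part in the result was not tested.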

How the data were processed

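Polyadenylated RNA of whole spinal cords at E13.5 was sequenced in 3 libraries labelled NFIAcKO and 3 labelled control, from a stranded mRNA kit and column-purified RNA per the labels. HTSeq, DESeq2, STAR 2.6.1a and the build mm10 are listed in the submitters' processing notes. The authors deposited whole-number counts per gene symbol, not normalized. The sources used here give neither the annotation nor the strand setting, which makes the counts of overlapping genes uncertain. The 5 summary lines of each table, 16.9 to 19.4% of its total, stayed out of library sizes and tests. The labels give no litters, so p-values measure the spread between these samples. No libraries within a group were alike within sampling noise.

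All genes passing filterByExpr were fitted with edgeR 4.0.16 (R 4.3.3): TMM scaling, robust quasi-likelihood F test, Benjamini-Hochberg adjustment over all genes tested, called at 0.05. CPM use TMM-scaled library sizes, and exon lengths, GC content and coordinates come from GENCODE M21 (GRCm38), which held all 56 members by name. Depths of 43393053 to 51465763 gene counts put the limit that a count of 0 allows (3 counts) at 0.0583 to 0.0691 CPM, for counting error only. Alternatives were other scalings and filters, DESeq2 1.42.0, limma-voom (limma 3.58.1), a length and GC trend (natural splines, 5 degrees of freedom each) removed as an offset, covariates, the replicate number as a block, and each library left out. Same-numbered libraries of the 2 groups deviated together (correlations over genes of 0.353, 0.397 and 0.193, against -0.327 to 0.0888 for other numbers). The calls, SE and adjusted p values given first come from a fit without this pairing. Results with the replicate number as a block are given where stated. The fit was tested on simulated data. A member and a marker gene are not reported here by name. Members, classes and lists were chosen with earlier results of these data known. Per-library values are given for called members and the member highest per kilobase in each class, up to 4 genes per pathway list by smallest p, and the 3 highest of each marker list.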

Additional observations from a re-analysis of the deposited data

How the results depend on the processing

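Of 979 values of single members under these alternatives, 894 kept the same call status, 29 lost the call and 56 gained it. No value called in either fit changed sign, whereas 40 values of 18 members, uncalled in both fits, did. Against 8 members called higher, 3 of them collagens and 3 laminins, the counts were 18, 11 and 5 with no count filter, 14, 7 and 5 by DESeq2, and 19, 11 and 6 (against 16.1% of all genes higher, with 2 lower, both collagens, and a median of 0.42) within the 4 libraries that share a file-name number. limma-voom gave 13 members and 7 collagens, and the replicate block 11 members, 5 collagens and 4 laminins. The shared number as a covariate gave 10 members and 5 collagens. Of all genes tested, 7.86% were higher as first fitted, 5.64% with no count filter, 14.1% by DESeq2 and 7.37% by limma-voom. The share was 7.64% with the replicate block and 9.6% with the shared number as a covariate. Removing the length and GC trend gave 5 members and 1 laminin (3.82% of all genes higher), and adding the replicate block to that 6 members (3.99%). RLE scaling gave 8 (7.81%), a minimum of 10 counts in 3 libraries 8 (7.8%) and a covariate for high or low Xist 10 (8.58%). Xist had 0, 9316 and 3 counts in the libraries labelled NFIAcKO and 0, 17620 and 2 in those labelled control. That covariate thus set replicate 2 of both groups apart from the other libraries. Upper quartile scaling gave 7, with 1057 genes higher and 1434 lower over the whole table against 1392 and 1076 with TMM scaling. Leaving out 1 library gave 4 to 18 members higher and 0 to 2 lower, 1 to 10 collagens higher and 0 to 2 lower, 2 to 6 laminins higher and 0 lower, and a median of 0.14 to 0.37. The same with the trend removed, an alternative chosen after seeing the data, gave 0 to 15 higher and 0 to 4 lower, collagens 0 to 8 and 0 to 4, laminins 0 to 5, and a median of 0.0097 (without control replicate 1), 0.0128 (NFIAcKO replicate 1), 0.050 (NFIAcKO replicate 3), 0.0696 (control replicate 2) and up to 0.22. Bmp1, at 0.02 as counted, was at -0.22 with the trend removed, with or without the block, and -0.24 when control replicate 3 was also left out. Adamts9 was at -0.00106 with the trend removed and NFIAcKO replicate 1 left out. Where a count depends on the setting, the cause was not tested. Depth limits the members under 1 CPM, such as Col28a1 and Col4a4.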

Other observations

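The members together took 0.467, 0.367 and 0.375% of all gene counts in the libraries labelled NFIAcKO, against 0.300, 0.280 and 0.387% in those labelled control, so control replicate 3 lay above 2 of the 3 libraries labelled NFIAcKO. Over the 3 same-numbered pairs, 20 of 55 members were higher in the library labelled NFIAcKO in every pair. A further 6 members were lower there in every pair. The same counts over all genes were not taken, so these have no background. Control replicate 3 held the lowest level of 0 of the 55 members and the highest of 9, again without a count over all genes. Col3a1 and Col5a2, a fibrillar pair that lies 24614 bp apart on chromosome 1, had log2 fold changes of 0.21 and 0.38, of which only the second was called.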
